A study of Homo sapiens with 4 samples.

Results

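The genes described here are 9 human genes for structural RNAs, RNAs that work as parts of RNA-protein machines and are not translated: RMRP (RNA of RNase MRP), RPPH1 (RNA of RNase P), TERC (RNA of telomerase), RN7SK, RN7SL1, RN7SL2, VTRNA1-1, VTRNA1-2 and VTRNA1-3 (vault RNAs). They were chosen by name, and 6 of the 9 were matched among the 25027 gene symbols of the deposited tables. RN7SK, RN7SL1 and RN7SL2 were not analysed here. Of the 6, RMRP, RPPH1 and TERC had at least 10 estimated reads in every library, and the 3 vault RNAs had fewer than 3 in every library. The levels come from 4 RNA sequencing libraries of RPE1, a line of retinal pigment epithelial cells that a transgene for the telomerase protein TERT keeps dividing. Cells received 10 nM of Stealth siRNA with Lipofectamine RNAi MAX, either 1 siRNA sequence against SAF-A or a negative control siRNA, and were collected 24 h or 48 h later. SAF-A is the product of HNRNPU, a protein of the nucleus found on RNA and chromatin. Total RNA was purified on RNeasy columns, depleted of ribosomal RNA, and sequenced as single-end reads of 50 bases from a kit that does not mark strand. Each of the 4 conditions is 1 library, so no difference has a replicate check and no test between conditions was possible.

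RNase P trims the 5′ ends of precursor tRNAs, and RNase MRP is its relative that cleaves precursor ribosomal RNA. Their RNAs, RPPH1 and RMRP, are made by RNA polymerase III from promoters that lie upstream of the gene and are bound by the SNAPc complex, and they share most of their protein partners. TERC, made by RNA polymerase II, carries the template from which telomerase copies telomere repeats, and ends in an H/ACA domain bound by dyskerin and its partners. Vault RNAs are RNA polymerase III transcripts with promoter boxes inside the gene, and part of them sits in the large cytoplasmic vault particle.

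The sequences below were read from the genome at the deposited coordinates (GRCh37, the build hg19 that the submitters' processing notes name). They are shown because the length and internal elements of these RNAs set how they could be measured and how far reads can tell them apart. The single-exon RMRP gene (row NR_003051) lies on the minus strand at chr9:35657748-35658015 and is 268 nt long. RPPH1 (row NR_002312) lies on the minus strand at chr14:20811230-20811570 and is 341 nt long, of which the first 300 nt are shown (chr14:20811271-20811570). In both, capitals mark the core of conserved region I, searched as GGGAANGTC, a stretch that RNase P and RNase MRP RNAs share. It lies at bases 68 to 76 of RMRP and 73 to 81 of RPPH1, and RMRP has a further match on the other strand at bases 118 to 126.
RMRP: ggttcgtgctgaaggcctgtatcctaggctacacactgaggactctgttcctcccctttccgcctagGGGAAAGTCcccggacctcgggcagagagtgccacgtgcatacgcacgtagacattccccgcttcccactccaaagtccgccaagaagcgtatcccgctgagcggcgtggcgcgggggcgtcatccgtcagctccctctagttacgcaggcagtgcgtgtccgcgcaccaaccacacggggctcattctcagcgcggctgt
RPPH1: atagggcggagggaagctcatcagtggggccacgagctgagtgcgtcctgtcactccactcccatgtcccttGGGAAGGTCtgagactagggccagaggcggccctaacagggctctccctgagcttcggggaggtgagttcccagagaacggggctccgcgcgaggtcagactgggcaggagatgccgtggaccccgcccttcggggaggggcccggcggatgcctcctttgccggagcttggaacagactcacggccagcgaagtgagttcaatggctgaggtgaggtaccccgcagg
Aligned over their whole length, RMRP and RPPH1 were identical at 51.7% of positions, and their longest shared run was 9 bases. No stretch of 50 bases, the length of a read, was the same in both, so a perfectly matching read could not have come from either of them alike.

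TERC (row NR_001566, 1 exon, 451 nt) lies on the minus strand at chr3:169482398-169482848. Its first 100 bases (chr3:169482749-169482848) are shown with the telomere template in capitals, searched as TAACCCTAA and found at bases 47 to 55. Its last 60 bases (chr3:169482398-169482457) are shown with the ACA box, bases 446 to 448, in capitals.
TERC, first bases: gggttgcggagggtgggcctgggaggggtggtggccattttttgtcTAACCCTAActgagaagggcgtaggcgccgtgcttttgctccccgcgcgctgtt
TERC, last bases: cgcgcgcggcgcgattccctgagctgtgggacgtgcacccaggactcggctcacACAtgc

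The 3 vault RNAs lie in a row on the plus strand, each as 1 exon: VTRNA1-1 at chr5:140090861-140090958 (98 nt), VTRNA1-2 at chr5:140098511-140098598 (88 nt) and VTRNA1-3 at chr5:140105744-140105831 (88 nt). Capitals mark the cores of the internal promoter boxes, searched on both strands as AGCTCAGNG (A box) and GTTCGANNC (B box).
VTRNA1-1: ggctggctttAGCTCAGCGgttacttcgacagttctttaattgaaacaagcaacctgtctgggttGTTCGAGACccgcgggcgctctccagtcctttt
VTRNA1-2: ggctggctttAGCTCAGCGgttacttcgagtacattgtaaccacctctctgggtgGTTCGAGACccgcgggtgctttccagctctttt
VTRNA1-3: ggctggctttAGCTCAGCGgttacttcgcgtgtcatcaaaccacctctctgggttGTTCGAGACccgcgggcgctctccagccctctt
The A box core began at base 11 in all 3. The B box core began at base 66 of VTRNA1-1 and at base 56 of the other 2. Between pairs, 81.6% to 87.6% of aligned positions were identical and the longest shared run was 34 bases, so these RNAs also shared no 50-base stretch. For comparison, among 35116 RefSeq promoter windows (assembly GRCh38.p14) the A box core was found in 0.766% and the B box core in 0.259% of 98-base windows, the conserved region I core in 1.14% of 300-base windows, and the telomere template in 0.0142% of 100-base windows, on either strand.

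The deposited unit is FPKM, fragments per kilobase of transcript, scaled to a fixed number of mapped reads, and its length term is the effective length, the number of positions at which a fragment of the assumed size can start. With the fragment size that returned whole reads from the tables (200 ± 80 nt), the effective length was 72.6 nt for RMRP (27.1% of the RNA), 138 nt for RPPH1 (40.5%) and 247 nt for TERC (54.8%). It was 1.66 nt for VTRNA1-1 and 1 nt for VTRNA1-2 and VTRNA1-3. The divisor raises the FPKM of short RNAs, so estimated reads are given beside each level. RNAs shorter than 300 nt made up 50.9% to 63.8% of all summed FPKM per library.

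Levels are given throughout in the order control at 24 h, SAF-A at 24 h, control at 48 h, SAF-A at 48 h. Mapped reads numbered 28083822, 30701282, 28586051 and 1216740, so the SAF-A 48 h library stands apart by its depth. Comparisons within 24 h and between the control libraries do not use it. The targeted mRNA, HNRNPU, was at 91.2, 10.4, 84.6 and 9.24 FPKM, which is 11.4% of control at 24 h and 10.9% at 48 h. Of the 4 markers set for RPE1, 3 averaged 5 FPKM or more (VIM 2222, KRT18 130 and KRT8 39.5) and TERT had a mean of 0.559. These means hide differences between libraries, from 1586 to 3312 FPKM for VIM, 23.3 to 229 for KRT18 and 15.4 to 63.9 for KRT8. Of 7 markers of differentiated pigment epithelium, MITF alone averaged 5 FPKM or more (6.93) and RPE65 was listed at 0 in every library. The summed level of 5 markers of other cell types was 0.138 to 0.347 FPKM. In bulk RNA, fewer cells that hold an RNA and less of it per cell cannot be told apart, and every level is relative to the rest of its library.

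RMRP was the most abundant of these RNAs and higher after SAF-A siRNA at 24 h. Its level was 91167 FPKM in the control 24 h library (deposited 95% interval 90739 to 91595), 140633 after SAF-A siRNA at 24 h (140123 to 141143), 89802 in the control 48 h library (89381 to 90224) and 99728 after SAF-A siRNA at 48 h (97561 to 101894). The order was SAF-A 24 h, SAF-A 48 h, control 24 h, control 48 h, and no neighbouring intervals in it overlapped. These intervals cover estimation within a library and not variation between cultures. By FPKM RMRP ranked 2, 2, 2 and 1 among all symbols of the 4 libraries and took 9.64%, 13.1%, 10% and 10.9% of their summed FPKM. In estimated reads it had 185912, 313514, 186404 and 8811, or 0.662%, 1.02%, 0.652% and 0.724% of mapped reads.

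The difference in RMRP between SAF-A and control siRNA at 24 h was 0.63 on the log2(FPKM + 1) scale (0.61 to 0.64 from the bounds), and the ratio of the shares of mapped reads was 1.54 (exact 95% interval 1.53 to 1.55, counting error only). At 48 h the difference was 0.15 (0.11 to 0.19) and the ratio 1.11 (1.09 to 1.13). The 48 h direction turned to -0.08 when libraries were scaled to equal sums of RNAs of at least 300 nt. Between the control libraries, RMRP differed by -0.02 from 24 h to 48 h (ratio 0.985), and the sign turned to 0.06 on the TPM scale. Between the SAF-A libraries it differed by -0.50 (ratio 0.709). None of these reached 2-fold, the size called a change here.

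RPPH1, the RNA of RNase P, was higher after SAF-A siRNA at 24 h and lower at 48 h. Its level was 34965 FPKM (34773 to 35157) in the control 24 h library and 43591 (43386 to 43797) after SAF-A siRNA at 24 h. At 48 h it was 34172 (33984 to 34360) in the control and 24614 (23846 to 25382) after SAF-A siRNA. The SAF-A libraries were thus its highest and lowest, with the control libraries between them and no neighbouring intervals overlapping. RPPH1 had 135609, 184821, 134902 and 4136 estimated reads. It ranked 3, 3, 3 and 4 by FPKM.

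At 24 h the RPPH1 difference was 0.32 on the log2(FPKM + 1) scale (0.30 to 0.33; ratio of the shares of mapped reads 1.25, 1.24 to 1.26). At 48 h it was -0.47 (-0.53 to -0.42; ratio 0.72, 0.698 to 0.743). Both directions were kept under every scaling tried, with values of 0.13 at 24 h on the TPM scale and -0.71 at 48 h with equal sums of RNAs of at least 300 nt. Between the control libraries RPPH1 differed by -0.03 (0.05 on the TPM scale). Between the SAF-A libraries it differed by -0.82 (ratio 0.565), and by -1.03, past 2-fold, with equal sums of RNAs of at least 300 nt. The difference between the 24 h and 48 h effects of the siRNA was not tested, since it rests on 1 library per condition. Several other RNAs of similar length, compared below, were also higher at 24 h and lower at 48 h.

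**Figure D1:**
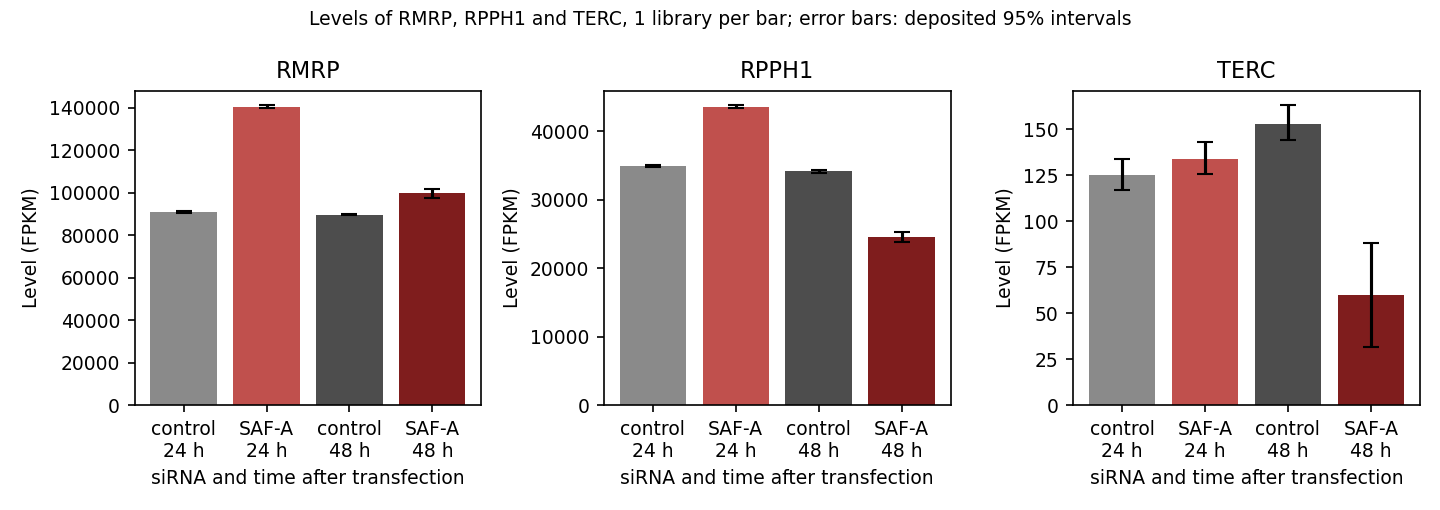
Levels of RMRP, RPPH1 and TERC in FPKM (vertical axes, each starting at 0 with its own scale) in the 4 libraries, with 1 bar per library and the deposited 95% intervals as error bars. RMRP and RPPH1 were highest after SAF-A siRNA at 24 h, and TERC was lowest after SAF-A siRNA at 48 h (59.9 FPKM).

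RMRP and RPPH1 can be compared within a library, where a scaling factor common to the library cancels. A shift that depends on RNA length would not cancel, since RMRP has 268 nt and RPPH1 341 nt. At 24 h the median difference was 0.69 for the other RNAs from 150 to under 350 nt. It was 0.09 for RNAs from 350 to under 1000 nt. The part of such a shift in the ratio was not tested. The ratio of RMRP to RPPH1 in FPKM was 2.61 (2.58 to 2.63 from the bounds) in the control 24 h library and 2.63 (2.6 to 2.65) in the control 48 h library. It was 3.23 (3.2 to 3.25) after SAF-A siRNA at 24 h and 4.05 (3.84 to 4.27) at 48 h. The control ratios overlapped, and both SAF-A ratios lay above them. Against the control of the same time the ratio was 1.24-fold higher at 24 h and 1.54-fold higher at 48 h, while the 2 controls differed by 1.01-fold. In estimated reads, with no length correction, the ratio was 1.37, 1.7, 1.38 and 2.13, in the same order of libraries. Divided by the full length of each RNA in place of the effective length, it was 1.74, 2.16, 1.76 and 2.71. The size of the ratio therefore depended on the length used. Its relative change between libraries is the same by construction, since each length is constant across libraries.

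**Figure D2:**
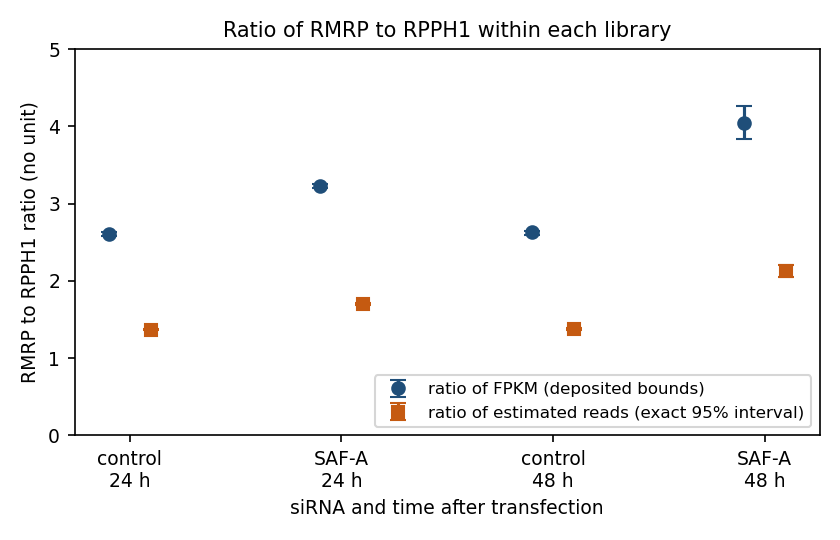
Ratio of RMRP to RPPH1 (vertical axis, no unit) in each library, from FPKM with the range given by the deposited bounds (circles) and from estimated reads with exact 95% intervals (squares). Each measure was near the same value in the 2 control libraries and higher in the SAF-A libraries, reaching 4.05 in FPKM and 2.13 in reads at 48 h. The measures differ by a constant factor, so they are not independent.

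A count over all features gives the background for these differences. Of 11631 symbols averaging 1 FPKM or more, 1.83% were past 2-fold on the higher side and 1.25% on the lower side after SAF-A siRNA at 24 h. At 48 h, with the shallow library, the shares were 14.2% and 20.1%. From 24 h to 48 h they were 1.79% higher and 1.36% lower in the controls, and 15.1% higher and 17.8% lower in the SAF-A libraries. Of the 6 matched structural RNAs, 2 were past 2-fold higher and 0 lower at 24 h, 1 higher and 1 lower at 48 h, 1 higher and 0 lower between the controls, and 1 higher and 2 lower between the SAF-A libraries. Each of these apart from TERC is a vault RNA with at most 2 reads in a library. Among the 3 RNAs with at least 10 reads in every library, the counts were 0 and 0, 0 and 1, 0 and 0, and 0 and 1 in the same order.

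RNAs near the length of RMRP and RPPH1 were also mostly higher after SAF-A siRNA at 24 h. Among the 23 tested RNAs from 150 to under 350 nt, which include RMRP and RPPH1 and are otherwise mostly small nucleolar and Cajal body RNAs, 17.4% differed at least 2-fold in either direction at 24 h, 34.8% at 48 h, 17.4% between the controls and 26.1% between the SAF-A libraries. Without RMRP and RPPH1, 19 of the other 21 were higher after SAF-A siRNA at 24 h and 2 were lower, with a median difference of 0.69. The median of all tested symbols was -0.06. Of the 23, 14 had a larger rise than RMRP and 19 a larger rise than RPPH1. At 48 h, 11 of the 21 were higher and 10 lower, with a median of 0.12 beside -0.12 for all tested symbols. RMRP at 24 h, at 0.63, lay close to the median of RNAs of its length, so its difference does not set it apart from them. Across all lengths, 392 of the 11631 symbols had a larger rise than RMRP and 859 a larger rise than RPPH1. Whether recovery of short RNAs differed between the libraries was not tested.

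**Figure D3:**
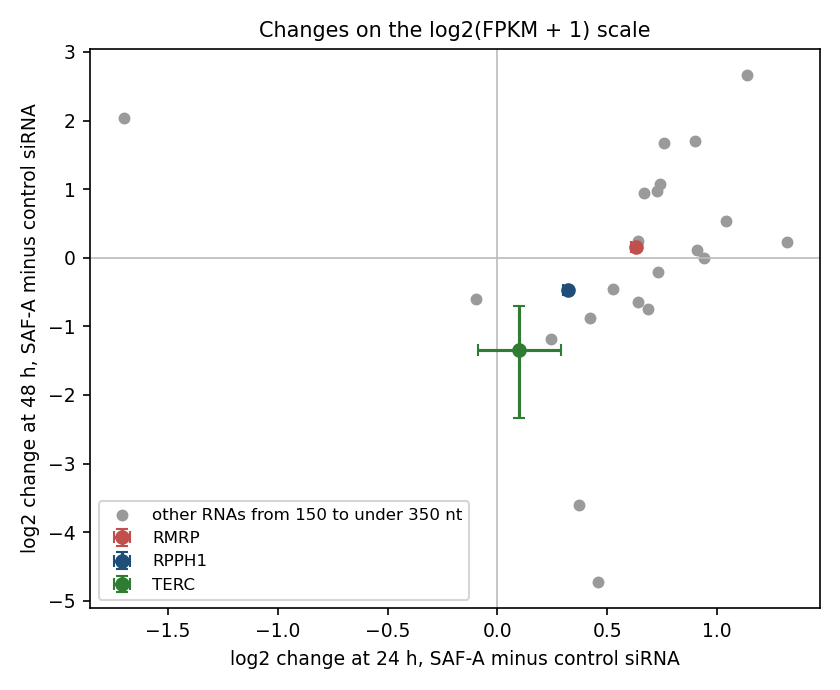
Differences between SAF-A and control siRNA on the log2(FPKM + 1) scale at 24 h (horizontal axis) and 48 h (vertical axis), with 1 library per condition. Shown are RMRP, RPPH1 and the 21 other tested RNAs from 150 to under 350 nt (grey), and TERC, which is longer (451 nt). Error bars on the named RNAs give the range from the deposited bounds. Most grey points lie to the right of 0 at 24 h, around RMRP (0.63), and on both sides of 0 at 48 h.

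TERC, the telomerase RNA, did not differ at 24 h beyond its intervals and was lower after SAF-A siRNA at 48 h. Its level was 125 FPKM (117 to 134) in the control 24 h library, 134 (126 to 143) after SAF-A siRNA at 24 h, 153 (144 to 163) in the control 48 h library and 59.9 (31.6 to 88.1) after SAF-A siRNA at 48 h. Estimated reads were 870, 1017, 1082 and 18, and the exact Poisson interval of the last is 10.7 to 28.4. The control 48 h library was highest and apart from the next, SAF-A 24 h and control 24 h overlapped, and SAF-A 48 h was lowest and apart. Per effective length, RPPH1 exceeded TERC by 279-fold, 325-fold, 223-fold and 411-fold, the last with a range from 271 to 802.

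The TERC difference between SAF-A and control siRNA was 0.10 at 24 h on the log2(FPKM + 1) scale (-0.09 to 0.29), with a ratio of the shares of mapped reads of 1.07 (exact 95% interval 0.976 to 1.17), and its sign turned to -0.09 on the TPM scale. At 48 h it was -1.34 (-2.33 to -0.70), with a ratio of 0.391 (0.231 to 0.621). Of the 11631 tested symbols, 1523 had a larger fall at 48 h, and the share of all tested symbols called lower there was 20.1%. Among the 725 tested RNAs from 350 to under 1000 nt, the length class of TERC, 186 were called lower and 199 higher (53.1% either way). Between the controls TERC was 0.29 higher at the later time (0.10 to 0.47; ratio 1.22, 1.12 to 1.34), a larger difference than that between the siRNAs at 24 h. Between the SAF-A libraries TERC differed by -1.15 (-2.14 to -0.51), and by -0.92, under 2-fold, on the TPM scale. In its length class 179 of 725 were called lower and 203 higher between those libraries. Both low values rest on the SAF-A 48 h library of 1216740 reads, and no comparison without that library showed TERC at least 2-fold lower.

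The vault RNAs were at the limit of what these libraries could show. VTRNA1-1 was listed at 0, 39.2, 21 and 494 FPKM, and these values stand for 0, 2, 1 and 1 estimated reads. VTRNA1-2 was at 0 in all 4 libraries. VTRNA1-3 was at 32.6 FPKM in the SAF-A 24 h library, which is 1 read, and at 0 in the other 3. Every deposited interval of these RNAs began at 0. A single read of VTRNA1-1 was worth 21.4, 19.6, 21 and 494 FPKM in the 4 libraries, and a single read of VTRNA1-2 or VTRNA1-3 35.6, 32.6, 35 and 822. The floor used here, 3 reads, is 0.107, 0.0977, 0.105 and 2.47 RPM (reads per library scaled by its mapped reads). The exact Poisson 95% interval of a count of 0 reaches slightly higher, to 3.69 reads. No fold is given for them, and a difference between conditions was not detectable at this depth.

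None of the 5 genes beside the structural RNAs differed between the siRNAs at 24 h beyond its intervals. CCDC107, on the opposite strand and 271 bases from RMRP, was at 14.3, 13.7, 15.9 and 38.8 FPKM, a difference of -0.06 at 24 h and 1.24 at 48 h. ARHGEF39, 1325 bases from RMRP on the same strand, was at 1.15, 1.11, 1.36 and 0.274 FPKM, the last from 1 read. PARP2, which encodes a DNA repair enzyme and shares a promoter region with RPPH1, lies on the opposite strand 202 bases away and was at 10.8, 9.83, 11.6 and 9.5 FPKM, with overlapping intervals at both times. ACTRT3, 1862 bases from TERC on the same strand, was at 1.98, 1.63, 2.92 and 2.74 FPKM. ZMAT2, 4621 bases from VTRNA1-1, was at 41.2, 38.1, 46.9 and 54 FPKM. No gene lay within 5 kb of VTRNA1-2 or VTRNA1-3, and none of the neighbours overlapped a structural RNA in the deposited coordinates.

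The protein partners of RMRP and RPPH1 showed no 2-fold difference at 24 h. Of 11 genes for RNase P and RNase MRP proteins, 10 averaged 1 FPKM or more. At 24 h 0 of 10 were called, with a median of -0.05 beside -0.06 over all tested symbols. At 48 h 2 were higher and 3 lower, with a median of -0.15 beside -0.12. The intervals were apart for 1 of the higher and all 3 of the lower. POP7, a subunit that binds the RNA as a pair with another protein, was at 41.9, 44.7, 40.2 and 19.2 FPKM (difference -1.03 at 48 h). POP5 was at 38.3, 38.1, 33.2 and 5.52 FPKM, the last from 3 reads. RPP30 was at 23.5, 25.7, 24.2 and 52.9 FPKM (1.09 at 48 h). The partners thus differed in both directions at 48 h, in numbers that can be read against 14.2% and 20.1% of all tested symbols.

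Among 11 genes for telomerase and H/ACA proteins, 10 were tested, and 0 were called at 24 h (median -0.14). At 48 h 0 were higher and 2 lower (NHP2 and NAF1), with a median of -0.30. Over all tested symbols 14.2% were higher and 20.1% lower at 48 h, with a median of -0.12. NHP2, one of the core H/ACA proteins on TERC, was at 78.9, 82.3, 87.2 and 35.6 FPKM. NOP10, another, was at 108, 131, 115 and 201 FPKM, a difference of 0.27 at 24 h and 0.80 at 48 h. RUVBL2, a helicase used in assembling the particle, was at 134, 117, 123 and 132 FPKM. NAF1, an assembly factor, was at 2.83, 2.49 and 3.33 FPKM and listed at 0 in the SAF-A 48 h library. The core proteins NHP2 and NOP10 lay on opposite sides of their control at 48 h. Core proteins DKC1 (dyskerin) and GAR1, added afterwards, lay below their control like NHP2. DKC1 was at 49.6, 40.6, 47.2 and 32.9 FPKM (-0.28 at 24 h and -0.51 at 48 h, intervals apart at both times). GAR1 differed by -0.15 and -0.50, with overlapping intervals. TERT, the catalytic protein, was at 0.404, 0.243, 0.68 and 0.908 FPKM with overlapping intervals between the siRNAs at both times. Its mean was under 1 FPKM, so it was not among the tested genes.

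Of the 3 mRNAs for vault proteins, MVP was at least 2-fold higher after SAF-A siRNA at 48 h, where 14.2% of all tested symbols were. MVP, the major vault protein that forms the shell, was at 44.5 FPKM (41.6 to 47.3), 41.9 (39.3 to 44.6), 58.7 (55.3 to 62.1) and 192 (174 to 210). PARP4, a vault-associated enzyme, was at 18.6, 20.3, 25.5 and 47.9 FPKM. TEP1, which binds vault and telomerase RNA, was at 2.13, 1.96, 3.14 and 4.07 FPKM. From 24 h to 48 h the 3 differed by 0.39 to 0.43 in the controls (0 called) and by 0.78 to 2.17 in the SAF-A libraries (2 called, beside 15.1% of all tested symbols). Under SAF-A siRNA the median difference was -0.08 at 24 h (0 of 3 called; 0.02 over the 2 genes averaging 5 FPKM or more) and 0.88 at 48 h, with 1.69 for MVP and 0.29 with overlapping intervals for TEP1. The corresponding RNAs could not be followed, as described above.

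The protein partners of 7SK and 7SL RNA were described from their mRNAs. Among 8 genes for the 7SK particle and the transcription factor P-TEFb, 0 were called at 24 h (median -0.04) and 1 was lower at 48 h (median -0.59, and -0.05 over the genes averaging 5 FPKM or more), beside 20.1% lower over all tested symbols. That gene was MEPCE, which caps 7SK RNA, at 30.7, 22.9, 24.7 and 11.2 FPKM (-0.41 at 24 h and -1.08 at 48 h, intervals apart at both times). LARP7, which binds the 3′ end of 7SK, was at 18.2, 18.6, 19.4 and 24.6 FPKM, and CDK9, the kinase of P-TEFb, at 9.42, 8.7, 9.21 and 11.2. Among 8 genes for the signal recognition particle and its receptor, 0 were called at 24 h (median -0.02), and 2 were higher and 2 lower at 48 h (median -0.22). These 48 h counts stand beside 14.2% higher and 20.1% lower over all tested symbols. SRP9 and SRP14 encode a pair of proteins that bind 7SL RNA together. SRP9 was at 141, 151, 163 and 77 FPKM and SRP14 at 66.1, 73.7, 86.6 and 200, so they lay on opposite sides of their control at 48 h (-1.07 and 1.20). SRP54, which binds the signal peptide, was at 45.9, 45.1, 54.4 and 158 FPKM.

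The machinery that transcribes RMRP, RPPH1 and the vault RNAs had no 2-fold difference at 24 h. Of 18 genes for RNA polymerase III subunits, 0 were called at 24 h (median -0.13, with 14 below 0), and 3 were higher and 1 lower at 48 h (median -0.02). Over all tested RNAs of 1000 nt or longer, 6865 of 10323 were below 0 at 24 h (median -0.08). The 3 with the highest mean level were POLR2L (69.3, 85, 86.7 and 104 FPKM), POLR1D (48.9, 49.4, 55.5 and 53.6) and POLR2K (45.9, 44.6, 49 and 49.3), all small subunits shared with other RNA polymerases. Of 20 genes for initiation factors and regulators, 0 were called at 24 h (median -0.14, with 14 below 0), and 2 were higher and 4 lower at 48 h (median -0.36, and -0.12 over the genes averaging 5 FPKM or more, beside -0.12 for all tested symbols). For both lists the 48 h counts stand beside 14.2% higher and 20.1% lower over all tested symbols. GTF3A, the factor for 5S ribosomal RNA genes, was at 71.4, 76.9, 42.5 and 105 FPKM, so its 48 h difference of 1.29 was against a control that was itself lower than at 24 h. SSB, the La protein that binds the ends of new RNA polymerase III transcripts, was at 98, 89.4, 98.8 and 72.6 FPKM. GTF3C6 was at 51.8, 52.5, 55.2 and 32.5 FPKM.

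Within the machinery 3 genes are described further and were chosen after their values were seen. They were not alone in differing at least 2-fold at 48 h. Others in the machinery did so too, such as POLR2F (1.39) and POLR3C (1.30) on the higher side and SNAPC5 (-1.46) and BDP1 (-1.10) on the lower. Over all tested symbols 14.2% were higher and 20.1% lower at 48 h. POLR3G (chr5:89770681-89810369) and POLR3GL (chr1:145456236-145470387) encode alternative versions of the same subunit. POLR3G was at 11 FPKM (10.3 to 11.7) in the control 24 h library and 5.54 (5.05 to 6.03) after SAF-A siRNA at 24 h. At 48 h it was 9.74 (9.07 to 10.4) in the control and 0.8 (0 to 1.72) after SAF-A siRNA, from 3 reads. These are 50.3% and 8.22% of the control, differences of -0.88 and -2.58, and the intervals were apart at both times. POLR3GL was at 11.7, 12.4, 16.1 and 51.3 FPKM, a difference of 0.07 at 24 h and 1.62 at 48 h. SNAPC1, a subunit of the complex that binds the upstream promoters of RMRP and RPPH1, was at 17.5, 12.4, 14 and 4.69 FPKM, differences of -0.47 and -1.40 with intervals apart at both times. RMRP and RPPH1 themselves were higher at 24 h (0.63 and 0.32), as were most RNAs of their length. At 48 h RMRP differed by 0.15 and RPPH1 by -0.47. A link between these mRNAs and the levels of RMRP and RPPH1 was not tested.

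**Figure D4:**
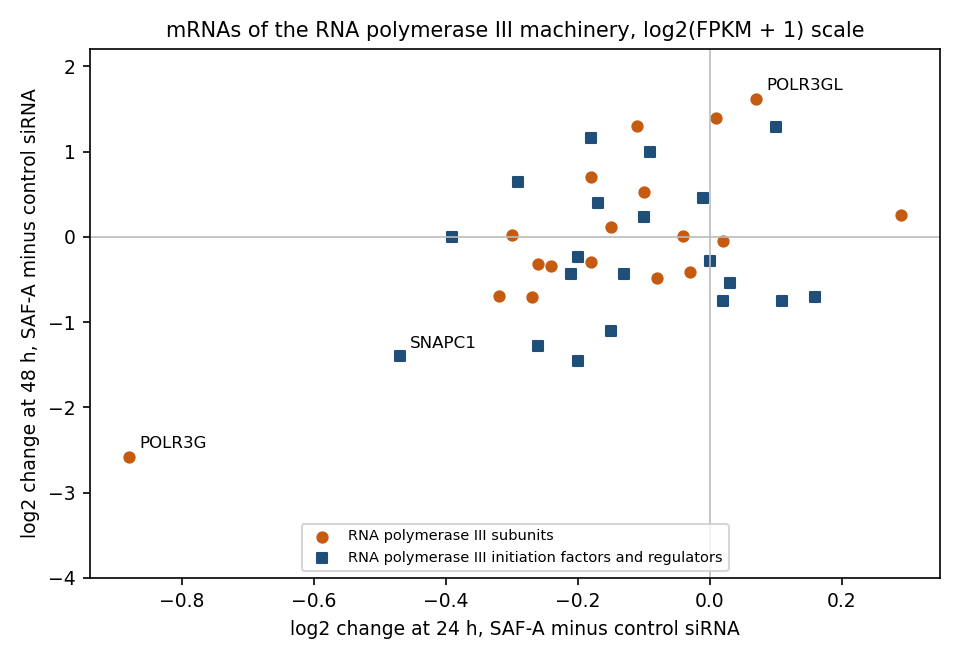
Differences between SAF-A and control siRNA on the log2(FPKM + 1) scale at 24 h (horizontal axis) and 48 h (vertical axis) for mRNAs of 18 RNA polymerase III subunits (circles) and 20 initiation factors and regulators (squares), with 1 library per condition. No point is beyond 1 in either direction at 24 h, and POLR3G (-0.88 and -2.58) lies at the lower left.

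Of the other transcripts of RNA polymerase III, RNU6ATAC had the most reads. Of 17 such genes 7 were matched and 5 tested. SNAR-A1 and SNAR-A2, near-identical small RNAs, had the same values (173, 393, 140 and 179 FPKM; 21, 52, 17 and 1 reads) and are counted as 1 measurement, since reads could not split them. So counted, 2 of 4 were at least 2-fold higher at 24 h, the SNAR-A pair (1.18, intervals apart) and VTRNA2-1 (4 reads), and 0 were lower. VTRNA2-1 was counted only through the SAF-A 24 h library, where it was at 71.5 FPKM (0 to 143). It could therefore only be called higher at 24 h, and its place in this count carries no information. At 48 h 1 of 4, RNU6ATAC, was higher and 0 lower. Most of them are shorter than 150 nt, and of the 559 tested RNAs of that length 50.8% were past 2-fold at 24 h (167 higher and 117 lower) and 65.8% at 48 h (69 higher and 299 lower). In this class a single read can bring an RNA past both the filter and 2-fold, as for VTRNA1-3 at 24 h (32.6 FPKM from 1 read). These shares include such calls, and those at 48 h also rest on the shallow SAF-A library. RNU6ATAC, a small nuclear RNA of the minor spliceosome with an upstream promoter of the same type as RMRP, was at 1071 FPKM (891 to 1251), 2056 (1817 to 2296), 1638 (1414 to 1861) and 3830 (2197 to 5464). These stand for 142, 298, 221 and 22 reads. It was higher after SAF-A siRNA at both times, by 0.94 and 1.23, and also higher in the 48 h than in the 24 h control. BCYRN1 was at 14.3, 22.9, 26.7 and 16.8 FPKM with overlapping intervals, from 10, 17, 18 and 0 estimated reads after rounding. Its last value, with an interval of 0 to 85.8, is no measured level. VTRNA2-1 had 4 reads in the SAF-A 24 h library and 0 in the others, and RNY4 and RNY5 were listed at 0 throughout.

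The genes with the most similar profile were sought for each structural RNA among 8217 symbols, as the distance between log2(FPKM + 1) values centred on their mean over the 4 libraries. For RMRP they were TVP23B (distance 0.145; 17.5, 24.4, 15.1 and 17.9 FPKM) and TRAPPC2 (0.150). For RPPH1 they were EAF1 (0.069; 8.12, 10.2, 7.39 and 5.37 FPKM) and RPL26L1 (0.076). For TERC, RPS3A was the nearest (0.043; 620, 654, 731 and 299 FPKM). Each distance rests on 4 libraries. For VTRNA1-1 the nearest were NM_001287487 and SNORA2A, at distances of 3.198 and 3.305, which is no likeness, and for VTRNA1-3 they were MIR4754 and MIR6126 (0.067 each), which share with it 1 read in the SAF-A 24 h library and 0 elsewhere.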

How the data were processed

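RNA from 4 libraries of RPE1 cells was measured, 1 per condition, grouped by the siRNA and time in the labels. FPKM with lower and upper 95% bounds per RefSeq row (47338 rows per table) were computed by the authors and used as deposited, per the file headers. The submitters' processing notes name TopHat2 2.0.10, Bowtie2 2.1.0, Cufflinks 2.2.1, Cuffdiff and hg19. How multiply mapping reads and strand were handled is not given in the sources used here. Rows were joined to symbols through a RefSeq table used for names (97.1% of rows matched), and FPKM and bounds were summed per symbol.

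The deposited transcript files also give coverage. Its quotient with FPKM was the same for all transcripts of a library and gives the number of mapped reads. Reads per gene were FPKM multiplied by effective length and mapped reads, for fragments of 200 ± 80 nt of at least 48 nt. This setting gave 1 read (within 1%) for 100% of the 110, 123, 107 and 41 rows whose deposited bounds mean 1 read. Without molecular identifiers, intervals and floors cover counting error only.

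Differences are of log2(FPKM + 1), which understates changes of low genes. A symbol was tested, in the sense of counted, if it averaged 1 FPKM or more, and called at 2-fold. The calculation was tested on simulated data. Python 3.11.15, pandas 2.3.3, numpy 2.4.6, scipy 1.17.1 and matplotlib 3.10.9 were used. Genes and lists were chosen with earlier results of these data known. Named were the structural RNAs, the 3 genes of highest mean in each of 8 lists, list genes changed 2-fold the same way at both times with intervals apart (0 met this), all genes within 5 kb, HNRNPU, markers averaging 5 FPKM or more, and the 2 genes of most similar profile, of which 1 is not reported here. Others are named as chosen afterwards or to account for a count. As alternatives, results were recomputed with 0.1 as pseudocount, without the filter on low values, with a filter at 5 FPKM, and with TPM, equal sums of RNAs of at least 300 nt, centring on their median, intervals that do not overlap and 1.5-fold. A minimum of 10 estimated reads was added after seeing the data.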

Additional observations from a re-analysis of the deposited data

Results flagged for a closer look

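RPPH1 was picked out because SAF-A siRNA went with a higher level at 24 h (0.32 on the log2(FPKM + 1) scale) and a lower level at 48 h (-0.47), with deposited intervals apart at both times. This pattern is not particular to RPPH1. Of the 21 other tested RNAs from 150 to under 350 nt, 19 were higher at 24 h and 10 were lower at 48 h. Several of them were both, such as 1 with 0.688 at 24 h and -0.744 at 48 h. The difference between the times was not tested, since each condition is 1 library, and the 48 h value rests on the SAF-A 48 h library of 1216740 reads.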

How the results depend on the processing

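No paired analysis was possible because each condition is 1 library with no replicate number, and for the same reason no library could be left out within a group. Of the alternatives, 89 values for single structural RNAs stayed within their range from the bounds and 31 did not. Many of the 89 had little room to move. They include vault RNAs with few or no reads, and RMRP and RPPH1 under the other pseudocount and in reads. At 24 h RMRP and RPPH1 left their ranges under TPM, equal sums and centring alike. For RPPH1 these gave 0.13, 0.27 and 0.38, outside 0.30 to 0.33. At 48 h RPPH1 left its range under equal sums only, and RMRP under equal sums and centring. The count of structural RNAs at least 2-fold higher became 0 in all 4 comparisons both when intervals had to be apart and with at least 10 estimated reads. The count of those lower between the SAF-A libraries changed from 2 to 1 under each of these and on the TPM scale, and to 3 with equal sums of RNAs of at least 300 nt and at 1.5-fold. With no filter on low FPKM, 1.49% of symbols were called at 24 h, 16.9% at 48 h, 1.55% between the controls and 16% between the SAF-A libraries. At 1.5-fold these shares were 5.79%, 57.1%, 7.65% and 56.1%. With intervals apart they were 0.954% at 24 h and 1.06% between the controls. The median of the vault proteins at 48 h was 1.29 over genes averaging 5 FPKM or more and 0.65 with equal sums of RNAs of at least 300 nt. Between the SAF-A libraries it was 1.68 with that filter and 1.42 on the TPM scale. The ratio of RMRP to RPPH1 in estimated reads was 1.37, 1.7, 1.38 and 2.13 (control and SAF-A siRNA at 24 h, then at 48 h), by construction, since the lengths drop out. Between the SAF-A libraries, the filter at 5 FPKM turned the median from -0.65 to 0.07 for the 7SK and P-TEFb list and from -0.27 to 0.26 for the initiation factors. No called value changed sign. Scaling moved the median of all tested symbols from -0.06 to -0.22 at 24 h (TPM), from -0.12 to -0.31 at 48 h (equal sums) and from -0.02 to -0.20 between the SAF-A libraries (equal sums), and to 0.14 there on the TPM scale. RMRP at 24 h was 0.44 on the TPM scale and 0.69 after centring. Shares within the 7SL and vault RNA families, planned at the start, were not computed, the first because those RNAs were not analysed here and the second because the vault RNAs had at most 3 reads together in a library. Depth limits the SAF-A 48 h library most, where TERC rests on 18 reads.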

Other observations

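Among the RNAs from 150 to under 350 nt compared above, RNA5-8SN5 stands for 5.8S ribosomal RNA, which is made from the precursor that RNase MRP cleaves. It was at 22356, 6865, 1805 and 7389 FPKM (control and SAF-A siRNA at 24 h, then at 48 h). It was chosen after its values were seen, and is 1 of the 2 of those RNAs that were lower after SAF-A siRNA at 24 h (-1.70). The 2 control libraries were its highest and its lowest. Ribosomal RNA was a target of the depletion kit, and the part of depletion in these values was not tested.

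Under SAF-A siRNA at 48 h, 3 of the 5 subunits of SNAPc, the complex on the upstream promoters of RMRP and RPPH1, were at least 2-fold lower (SNAPC1, SNAPC4 and SNAPC5, with overlapping intervals for SNAPC5), beside 20.1% of all tested symbols. The grouping was chosen after its values were seen, so its count cannot be weighed against that share. In the whole list of 20 initiation factors and regulators, 4 were lower at 48 h, and these 3 are among them. SNAPC4 was at 3.76, 2.98, 3.67 and 0.924 FPKM and SNAPC5 at 5.87, 4.96, 6.83 and 1.85, the last values from 5 reads and 1 read. SNAPC3 was at 12, 8.9, 13.1 and 13.1 FPKM, lower at 24 h with intervals apart and level with its control at 48 h. SNAPC2 was at 5.66, 6.18, 5.12 and 2.64 FPKM (-0.75 at 48 h, intervals overlapping).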
